A study of Mus musculus with 6 samples.

Results

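The 10 genes described here control the passage of a cell through G1, the phase that precedes DNA synthesis. They comprise the D-type cyclins Ccnd1, Ccnd2 and Ccnd3, the E-type cyclins Ccne1 and Ccne2, the kinase Cdk6, the Cip/Kip inhibitors Cdkn1b and Cdkn1c, and the INK4 inhibitors Cdkn2b and Cdkn2c. They were taken by name from the 19938 genes that the arrays could represent by a probe set with a single gene symbol, and each was represented by its brightest probe set, judged by the mean of the 6 arrays. All 10 were measured, and all 10 lay above a gauge of background signal in both groups. That gauge, 6.16 on the log2 scale, was the 95th percentile of the mean levels of 1015 olfactory receptor genes, which are mostly silent outside the nose.

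Expression was compared between 2 groups of 3 arrays. In the VPA group, cultures of W4, a line of mouse embryonic stem cells, received 300 uM valproate, an antiepileptic drug that inhibits histone deacetylases, through 16 days of neural differentiation, a dose the labels call sub-toxic. In the PBS group, W4 cultures were differentiated for the same 16 days with phosphate-buffered saline, the solvent. Both groups grew in the same neural medium, which held bFGF and insulin, and both derive from 1 cell line. The design text describes the arrays of a group as biological replicates and gives no further detail of the cultures.

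D-type cyclins are made in response to growth signals and activate Cdk4 or Cdk6, which phosphorylate the retinoblastoma protein and so release E2F transcription factors. E2F factors then induce the E-type cyclins, which activate Cdk2 and start DNA replication. INK4 proteins bind Cdk4 and Cdk6 and keep D-type cyclins from activating them, whereas Cip/Kip proteins bind cyclin and kinase complexes and mainly restrain those of Cdk2. In the developing brain, cyclins D1 and D2 are characteristic of dividing progenitors, and the Cip/Kip proteins accumulate as cells leave the cycle to become neurons.

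With VPA, 9 of the 10 genes rose, cyclins and inhibitors alike, at an adjusted p under 0.05 in limma's moderated test with Benjamini-Hochberg adjustment over all genes. Of all genes tested 29.2% passed that threshold, 13.6% higher and 15.7% lower. With the fit limited to genes at or above the background gauge, 39.2% passed, 16.4% as higher, and 9 of the 10 rose. None of the 10 fell, and 0 did at an unadjusted p under 0.05; the exception to the rise was Cdkn1b, which did not pass. The median change of the 10 genes was 0.57 on the log2 scale, against 0.0013 over all genes, and their median absolute change was 0.57, against 0.12. All 3 VPA values lay above all 3 PBS values for 10 of the 10 genes, and VPA and PBS values were likewise separate, in either direction, for 44.0% of all genes. The genes were chosen with earlier results of these arrays known, so these counts describe the list and no p was given for it. Exact permutation was not used for single genes, because with 3 arrays a group its smallest two-sided p is 0.1.

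Array medians lay between 6.99 and 7.03. The median absolute difference between arrays over all genes was 0.06 to 0.07 among the PBS arrays and 0.07 between VPA replicates 2 and 3. VPA replicate 1 stood apart, differing by 0.12 from the second and by 0.13 from the third VPA array. Without VPA replicate 1, 9 of the 10 genes passed as higher and 0 as lower, while over all genes the share that passed as higher was 19.8%, against 13.6% with all arrays.

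**Figure D1:**
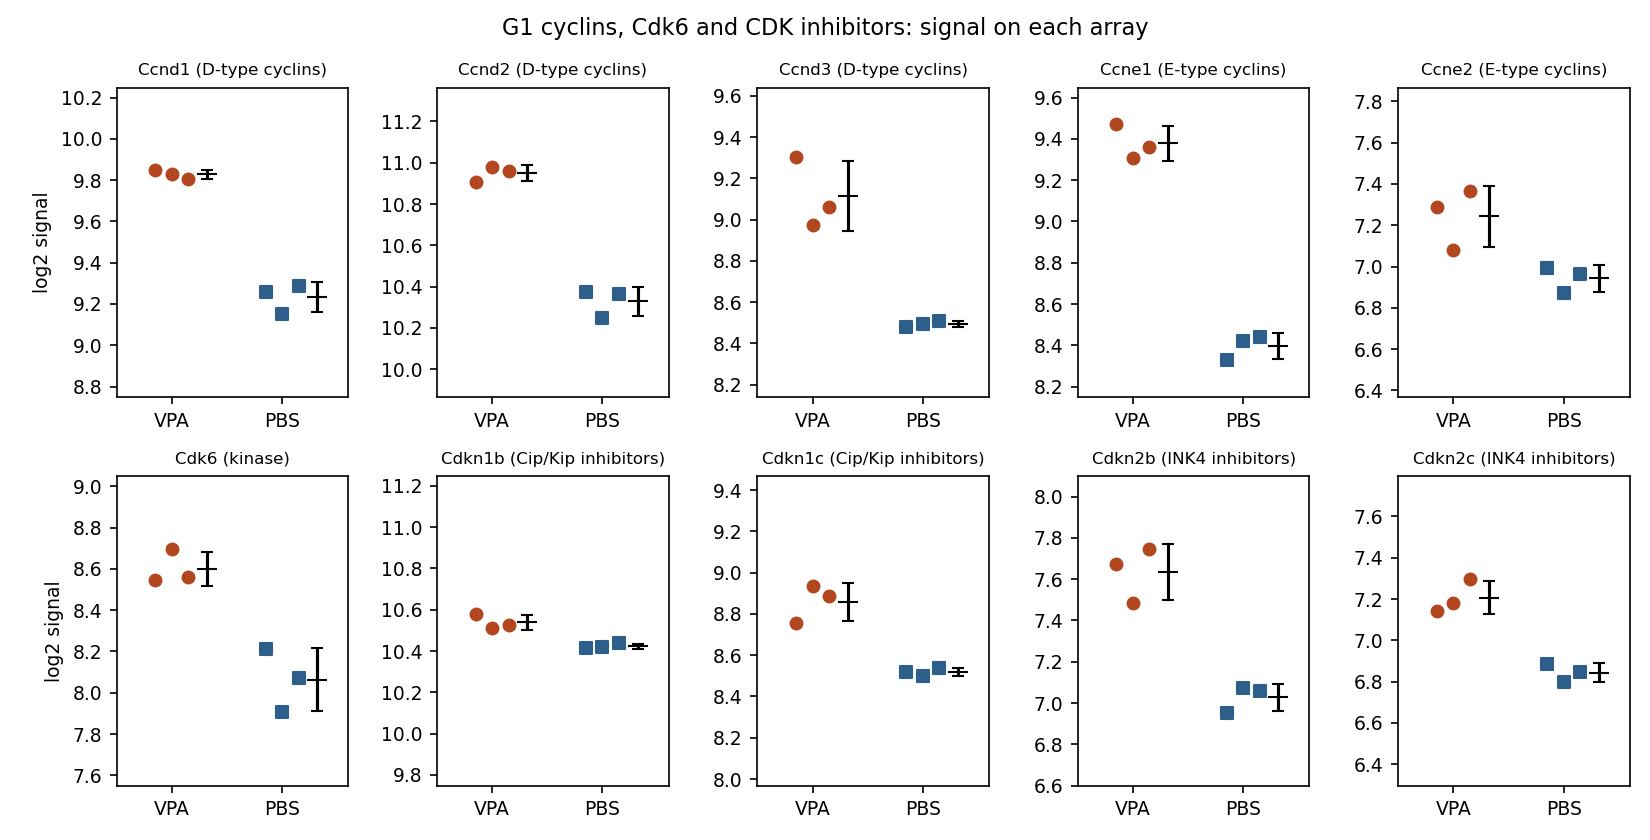
Deposited log2 signal of each of the 10 genes on each array, with VPA (circles) left of PBS (squares); the bar beside each group is its mean and SD over 3 arrays. Every panel spans the same height of 1.5 log2 units, with its own starting level, and in every panel the 3 VPA points lie above the 3 PBS points.

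The 3 D-type cyclins rose by 0.60 to 0.62 on the log2 scale. Ccnd1, cyclin D1, had log2 signals of 9.85, 9.83 and 9.80 on the VPA arrays, against 9.26, 9.15 and 9.29 on the PBS arrays. The VPA arrays spanned 0.04 and the PBS arrays 0.14, with a gap of 0.52 between the groups. Ccnd1 averaged 9.83 ± 0.02 with VPA and 9.23 ± 0.07 with PBS (SD, n = 3 each), a rise of 0.60 (SE 0.06, adjusted p = 0.00012 by limma), or 1.51-fold.

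Ccnd2, cyclin D2, had log2 signals of 10.91, 10.98 and 10.96 with VPA, against 10.37, 10.25 and 10.37 with PBS. Again the VPA arrays lay close together, and PBS replicate 2 was the lowest PBS array. The rise was 0.62 (SE 0.06, adjusted p = 0.000105 by limma), or 1.54-fold. Ccnd3, cyclin D3, which is widely expressed in differentiating tissues including muscle, had signals of 9.30, 8.97 and 9.06 with VPA, against 8.48, 8.50 and 8.51 with PBS. Here the wider spread was in the VPA group, with a range of 0.33 among the VPA arrays, led by VPA replicate 1, and of 0.03 among the PBS arrays. Ccnd3 rose by 0.62 (SE 0.08, adjusted p = 0.000671 by limma), or 1.53-fold; its change was 0.52 without VPA replicate 1 and 0.69 without VPA replicate 2. The 95% intervals of the 3 changes, 0.46 to 0.73 for Ccnd1, 0.48 to 0.75 for Ccnd2 and 0.43 to 0.81 for Ccnd3, overlapped over most of their length. Whether the changes differed from each other was not tested.

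Cdk6, a kinase partner of the D-type cyclins, rose as well. Its log2 signals were 8.55, 8.70 and 8.56 with VPA, against 8.21, 7.90 and 8.07 with PBS. It had the widest PBS range of the 10 genes, 0.31, with PBS replicate 1 highest and PBS replicate 2 lowest, yet the lowest VPA array was 0.34 above the highest PBS array. The change was 0.54 (SE 0.08, adjusted p = 0.00152 by limma), or 1.45-fold. The other partner, Cdk4, named here after its values were seen, did not pass. Cdk4 had signals of 12.27 on each VPA array, against 12.38, 12.36 and 12.37 on the PBS arrays, a difference of -0.09 (SE 0.05, adjusted p = 0.211 by limma, 95% interval -0.21 to 0.02). Its VPA arrays all lay below its PBS arrays, with an SD of 0.003 and 0.011, and without moderation of the variances its difference passed as lower (adjusted p = 0.00638).

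The E-type cyclins moved by unequal amounts. Ccne1, cyclin E1, changed the most of the 10 genes. Its log2 signals were 9.47, 9.31 and 9.36 with VPA, against 8.33, 8.42 and 8.44 with PBS, so that the lowest VPA array was 0.86 above the highest PBS array. Ccne1 averaged 9.38 ± 0.08 with VPA and 8.40 ± 0.06 with PBS (SD, n = 3 each), a rise of 0.98 (SE 0.07, adjusted p = 1.33e-05 by limma), or 1.97-fold. Of all genes, 1.74% had a larger absolute change. The change of Ccne1 lay between 0.93 and 1.02 under the 18 alternative settings, all past their threshold.

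Ccne2, cyclin E2, had signals of 7.29, 7.08 and 7.36 with VPA, against 6.99, 6.87 and 6.97 with PBS. VPA replicate 2 lay 0.09 above the highest PBS array, and the range within the VPA group was 0.28. Ccne2 rose by 0.30 (SE 0.08, adjusted p = 0.0214 by limma), or 1.23-fold, with a 95% interval of 0.12 to 0.48 that lies wholly below the interval of Ccne1, 0.83 to 1.13. That call was the least stable of the 9. It was lost without VPA replicate 3 (change 0.24, adjusted p = 0.0669), PBS replicate 1 (0.33, adjusted p = 0.0518), PBS replicate 2 (0.27, adjusted p = 0.0895) or PBS replicate 3 (0.31, adjusted p = 0.059), and without moderation of the variances (adjusted p = 0.107).

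**Figure D2:**
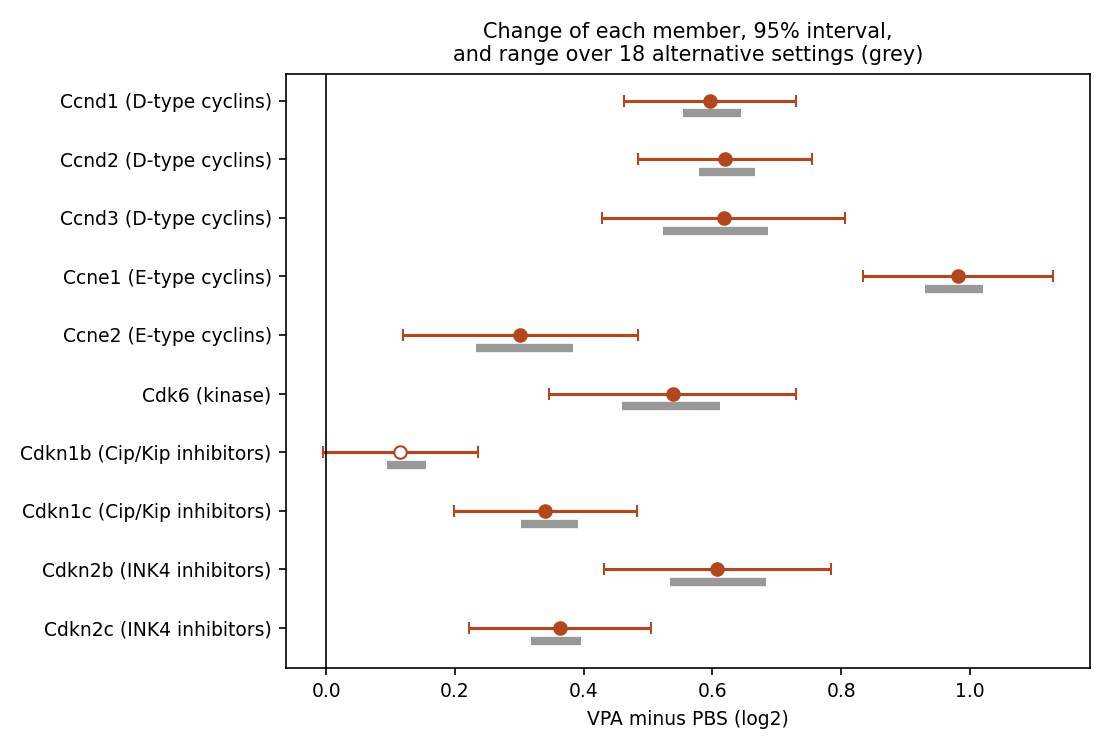
Change of each gene with VPA, as VPA minus PBS on the log2 scale: points with bars are the limma estimate and its 95% interval, and the grey bar under each is the range over 18 alternative settings. The open point is Cdkn1b, the gene not past the threshold; Ccne1 lies furthest right, at 0.98, and no grey bar crosses 0.

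The start region of Ccne1 is shown because this gene changed the most, with that of Cdkn2c, an inhibitor that rose beside it, and that of Cdkn1b, which did not pass. Each is the 250 bases before the annotated start, 5′ to 3′ on the strand of the gene, from RefSeq on build GRCm38.p6. Capitals mark GC boxes (GGGCGG, the core letters bound by Sp1-type factors) and CCAAT boxes (CCAAT), on either strand.
Ccne1, chr7:38107491-38107740, minus strand: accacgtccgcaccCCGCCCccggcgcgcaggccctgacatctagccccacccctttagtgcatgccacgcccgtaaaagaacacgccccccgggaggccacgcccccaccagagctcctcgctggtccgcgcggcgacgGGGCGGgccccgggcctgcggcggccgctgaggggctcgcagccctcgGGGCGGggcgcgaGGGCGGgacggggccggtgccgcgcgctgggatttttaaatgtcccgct
Cdkn2c, chr4:109666757-109667006, minus strand: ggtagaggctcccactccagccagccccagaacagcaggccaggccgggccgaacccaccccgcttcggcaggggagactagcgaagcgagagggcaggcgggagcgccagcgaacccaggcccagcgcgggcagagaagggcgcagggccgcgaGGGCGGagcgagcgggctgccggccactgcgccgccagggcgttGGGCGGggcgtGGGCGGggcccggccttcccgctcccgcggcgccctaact
Cdkn1b, chr6:134920151-134920400, plus strand: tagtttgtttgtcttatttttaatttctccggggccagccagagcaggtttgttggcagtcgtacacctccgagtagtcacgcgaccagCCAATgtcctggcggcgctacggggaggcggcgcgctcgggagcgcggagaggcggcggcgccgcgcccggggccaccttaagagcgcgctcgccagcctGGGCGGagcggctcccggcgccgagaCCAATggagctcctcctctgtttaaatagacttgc
The Ccne1 window held 4 GC boxes, the upstream Cdkn2c window 3, and the Cdkn1b window 1 GC box and 2 CCAAT boxes. The table held windows for 6 of the 10 genes, 8 windows in all. GC boxes were also found in both Ccnd3 windows (2 in the upstream window, and 1 beside 1 CCAAT box in the other), and none of these letters in the Cdk6 window, the Cdkn2b window or the other Cdkn2c window. The E2F site was searched as the exact letters TTTCCCGC, TTTCGCGC, TTTGCCGC and TTTGGCGC on both strands, and none of the 8 windows held it. Shorter or inexact matches were not searched, and neither were bases after the start. Among 32851 windows of the same length, 32.7% held a GC box, 33.8% a CCAAT box and 1.86% an E2F site in any of the 4 spellings. No motif of one kind overlapped another in the 8 windows. These matches are letters in a window, which were not tied to the changes above.

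Of the Cip/Kip inhibitors, Cdkn1c rose and Cdkn1b did not pass. Cdkn1c, which encodes p57 and is imprinted, with expression mainly from the maternal copy, had log2 signals of 8.76, 8.93 and 8.89 with VPA, against 8.52, 8.50 and 8.54 with PBS. The PBS arrays spanned 0.04 and the VPA arrays 0.18, with VPA replicate 1 lowest. Cdkn1c rose by 0.34 (SE 0.06, adjusted p = 0.00355 by limma), or 1.27-fold, and passed under all 18 alternatives. Without VPA replicate 1 its change was 0.39.

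Cdkn1b, which encodes p27, a protein whose level is set largely by degradation through the Skp2 ubiquitin ligase, had signals of 10.58, 10.51 and 10.53 with VPA, against 10.42, 10.42 and 10.44 with PBS. Its groups did not overlap, by 0.07, but the difference of 0.12 (SE 0.05) did not pass (adjusted p = 0.142 by limma, 95% interval -0.01 to 0.24), so that a rise of more than 0.24 lay outside the interval. Without moderation of the variances the same difference passed (adjusted p = 0.041). Of the 10 genes Cdkn1b alone had a further probe set. Its signals there were 8.16, 7.74 and 8.04 with VPA, against 7.92, 7.83 and 7.80 with PBS, and these groups overlapped, with a difference of 0.13 (SE 0.10, adjusted p = 0.383 over all probe sets).

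Both INK4 inhibitors rose. Cdkn2b, which encodes p15, known in epithelial cells as a target of TGF-beta, had log2 signals of 7.67, 7.49 and 7.75 with VPA, against 6.95, 7.07 and 7.06 with PBS. VPA replicate 2 was the lowest VPA array and still lay 0.41 above the highest PBS array. Cdkn2b averaged 7.64 ± 0.14 with VPA and 7.03 ± 0.07 with PBS (SD, n = 3 each), a rise of 0.61 (SE 0.08, adjusted p = 0.000488 by limma), or 1.52-fold. Cdkn2c, which encodes p18, an inhibitor present in neural progenitors, had signals of 7.14, 7.18 and 7.30 with VPA, against 6.89, 6.80 and 6.85 with PBS. It rose by 0.36 (SE 0.06, adjusted p = 0.00245 by limma), or 1.29-fold, with a gap of 0.25 between the groups.

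Of the other inhibitors of these families, Cdkn2a lies next to Cdkn2b on chromosome 4 and encodes p16 and p19Arf from overlapping exons, which its probe set was not used to separate. Its signals were 7.32, 7.36 and 7.29 with VPA, against 6.70, 6.87 and 6.88 with PBS, a rise of 0.51 (SE 0.07, adjusted p = 0.000551 by limma). Cdkn2d, the INK4 gene of p19Ink4d, which is found in postmitotic neurons, had 7.57, 7.37 and 7.42 with VPA, against 7.55, 7.62 and 7.65 with PBS. Its groups overlapped and its difference was -0.16 (SE 0.07, adjusted p = 0.12 by limma), whereas without VPA replicate 1 it was -0.22 and passed as lower (adjusted p = 0.0133). Cdkn3, which is of neither family and encodes a phosphatase that acts on Cdk2, rose by 0.19 (SE 0.06, adjusted p = 0.0343 by limma). The call of Cdkn3 was lost without any 1 array other than VPA replicate 1, with adjusted p between 0.0676 and 0.141, and with the replicate number as a block (adjusted p = 0.0749). Cdkn1a, whose probe set is paired with a further gene, was not analysed here.

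**Figure D3:**
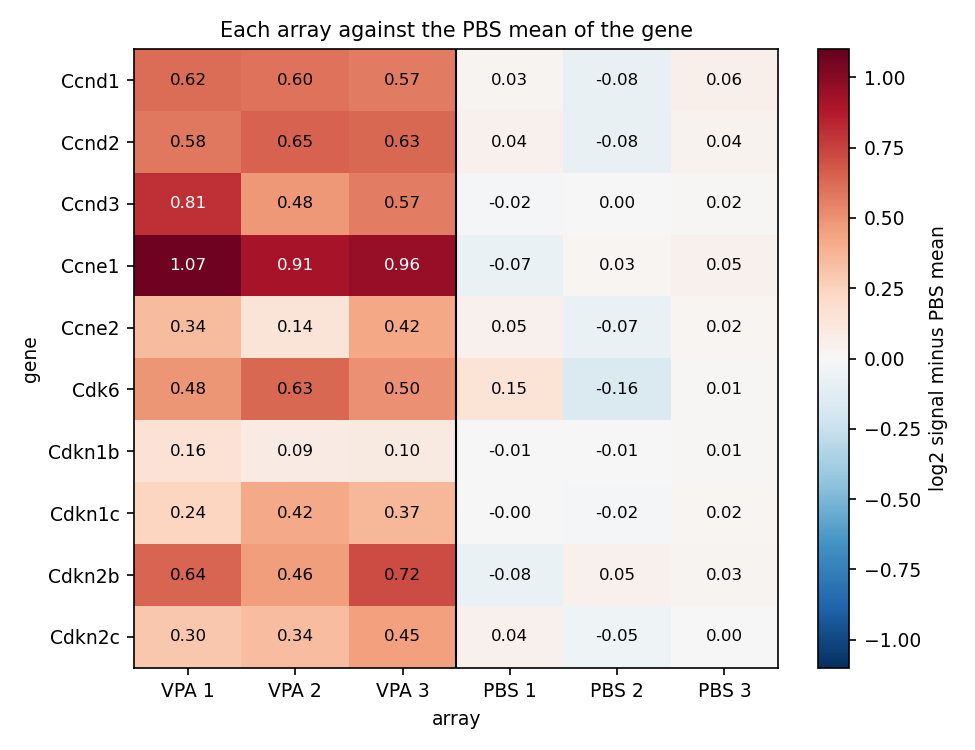
Log2 signal of each of the 10 genes (rows) on each array (columns) minus the PBS mean of that gene, with VPA arrays left of PBS arrays and the values printed in the cells. Ccne1 is the darkest row and Cdkn1b the palest, and the VPA arrays differ in order from gene to gene.

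The VPA arrays had no common order across the 10 genes. VPA replicate 1 was the highest VPA array for 4 genes and the lowest for 4, VPA replicate 2 the highest for 3 and the lowest for 5, and VPA replicate 3 the highest for 3 and the lowest for 1. The median of the 10 genes above their PBS means was 0.53, 0.47 and 0.53 on VPA replicates 1, 2 and 3. Among the PBS arrays, PBS replicate 2 was the lowest for 6 of the 10 genes and PBS replicate 3 for none. PBS replicate 2 was also the lowest PBS array for 13 of 15 S-phase genes and 10 of 11 genes of G2 and M phase. The same held for 10 of 13 Rb and E2F genes and 6 of 9 other G1 kinases and activators. It held for 8 of 13 genes of cyclin and inhibitor turnover, 9 of 15 upstream regulators and 0 of 3 other inhibitors. Without PBS replicate 2, 8 of the 10 genes passed as higher, all but Ccne2 and Cdkn1b, beside 8.92% of all genes. The count was also 8 without VPA replicate 3, PBS replicate 1 or PBS replicate 3.

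By the correlation of the 6 array values, the genes most like Ccne1 were Sec24d, a component of the vesicle coat that leaves the endoplasmic reticulum, the immediate early gene Egr1 and the matrix proteoglycan gene Dcn (Pearson r above 0.999 for each). This compares 6 arrays that fall into 2 groups, and 1073 of the 13943 other genes at or above the background gauge had an r of at least 0.95 with Ccne1. The changes of the 3 were 1.01, 0.41 and 2.28.

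The partners of these genes were described from lists chosen by role. Of 9 other G1 kinases and activators 3 rose and 0 fell, against 4 higher and 1 lower at an unadjusted p under 0.05. Over all genes 13.6% passed the adjusted threshold as higher and 15.7% as lower. Cdk2, the kinase of the E-type cyclins, had log2 signals of 8.87, 8.63 and 8.79 with VPA, against 8.19, 8.12 and 8.27 with PBS, a rise of 0.57 (SE 0.07, adjusted p = 0.00056 by limma). Cdc25a, a phosphatase that removes inhibitory phosphates from Cdk2, rose by 0.24 (SE 0.05, adjusted p = 0.00878). Ccna2, cyclin A2, which follows cyclin E on Cdk2, rose by 0.24 (SE 0.08, adjusted p = 0.0487). That call did not hold without VPA replicate 2 (adjusted p = 0.104), VPA replicate 3 (0.141), PBS replicate 2 (0.181) or PBS replicate 3 (0.155), with the replicate block (0.0772) and without moderation (0.15).

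Of 13 genes of the Rb and E2F family 6 rose and 1 fell, beside 13.6% higher and 15.7% lower over all genes. E2f1, an activating E2F that is itself an E2F target, had signals of 8.79, 8.60 and 8.57 with VPA, against 8.11, 7.92 and 8.13 with PBS, a rise of 0.60 (SE 0.08, adjusted p = 0.000698 by limma). E2f3, the other activator that passed, rose by 0.31 (SE 0.06). The atypical E2F genes E2f7 and E2f8, which repress E2F targets, rose by 0.37 (SE 0.06) and 0.54 (SE 0.10), the call of E2f8 lost without moderation (adjusted p = 0.0588). The gene that fell was Rb1, which encodes the retinoblastoma protein and was named after its values were seen. Rb1 had 9.98, 10.14 and 10.09 with VPA, against 10.25, 10.24 and 10.30 with PBS, a change of -0.19 (SE 0.06, adjusted p = 0.0407 by limma). That call was lost after quantile normalization (change -0.14, adjusted p = 0.145), with the replicate block (0.0682), without moderation (0.0708), and without VPA replicate 3 (0.0727), PBS replicate 1 (0.106), PBS replicate 2 (0.102) or PBS replicate 3 (0.139).

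Genes downstream of the G1 step rose too. Of 15 measured S-phase genes that E2F is known to regulate 10 rose and 0 fell (0 at an unadjusted p under 0.05). Over all genes 13.6% passed as higher and 15.7% as lower. The S-phase genes had a median of 0.33, and 7 to 11 rose over the alternatives at the same threshold, fewest without moderation. The largest changes among them were those of Mcm6, 0.74 (SE 0.08), Mcm5, 0.57 (SE 0.06), and Mcm2, 0.47 (SE 0.07), subunits of the replicative helicase, and of Tyms, 0.65 (SE 0.06), which makes thymidylate. Of 11 measured genes of G2 and M phase 9 rose and 0 fell (0 at an unadjusted p under 0.05), with a median of 0.48. Over the same alternatives 6 to 10 of them rose, fewest without moderation. Here the mitotic kinase genes Cdk1 and Aurkb each rose by 0.57 (SE 0.09 and 0.10), the checkpoint kinase gene Bub1 by 0.54 (SE 0.09) and Birc5, which encodes survivin, by 0.52 (SE 0.08). The call of Aurkb was lost without moderation (adjusted p = 0.0511).

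Of 13 genes linked to turnover of G1 cyclins and inhibitors 3 rose and 2 fell, beside 13.6% higher and 15.7% lower over all genes. Those that rose were Skp2, the substrate receptor of the ligase that marks p27, its cofactor Cks1b and the related gene Cks2. Skp2 had log2 signals of 9.15, 9.15 and 9.21 with VPA, against 8.73, 8.62 and 8.69 with PBS, a rise of 0.49 (SE 0.06, adjusted p = 0.000305 by limma). Cks2 rose by 0.55 (SE 0.09) and Cks1b by 0.38 (SE 0.08). The call of Cks1b did not hold without moderation (adjusted p = 0.0541). Fbxo4 and Fbxo31 are F-box genes described in human cells as receptors for cyclin D1. Fbxo4 changed by -0.34 (SE 0.07, adjusted p = 0.00631 by limma). Fbxo31, named after its values were seen, changed by -0.25 (SE 0.08, adjusted p = 0.0418 by limma). The call of Fbxo4 held in all 18 alternatives. That of Fbxo31 was lost wherever the count of falls was 1. Where the count was higher, whether Fbxo31 was among the genes that fell was not followed. The count of falls ranged from 1 to 5 over the alternatives at the same threshold. It was 1 without VPA replicate 2, PBS replicate 1, PBS replicate 2 or PBS replicate 3 and after quantile normalization, 3 without VPA replicate 1 or VPA replicate 3, 4 with an intensity trend and 5 with array weights.

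Of 15 measured upstream transcriptional regulators 4 rose and 3 fell, beside 13.6% higher and 15.7% lower over all genes. Klf4, which rose and was named after its values were seen, lay below the background gauge with PBS. With either filter on dim genes Klf4 was not tested and 3 regulators rose. Foxo1, a factor that can induce Cdkn1b and repress D-type cyclins, rose by 0.76 (SE 0.10). Lef1 and Tcf7l2, which act with beta-catenin and can induce Ccnd1, changed by -0.95 (SE 0.08) and -0.90 (SE 0.06). Lef1 had 8.19, 8.14 and 8.07 with VPA, against 9.19, 8.93 and 9.11 with PBS, with no overlap. Mycl changed by -0.43 (SE 0.07), while Myc and Mycn, named after their values were seen, had differences of -0.05 (SE 0.10, adjusted p = 0.764) and 0.09 (SE 0.07, adjusted p = 0.378).

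**Figure D4:**
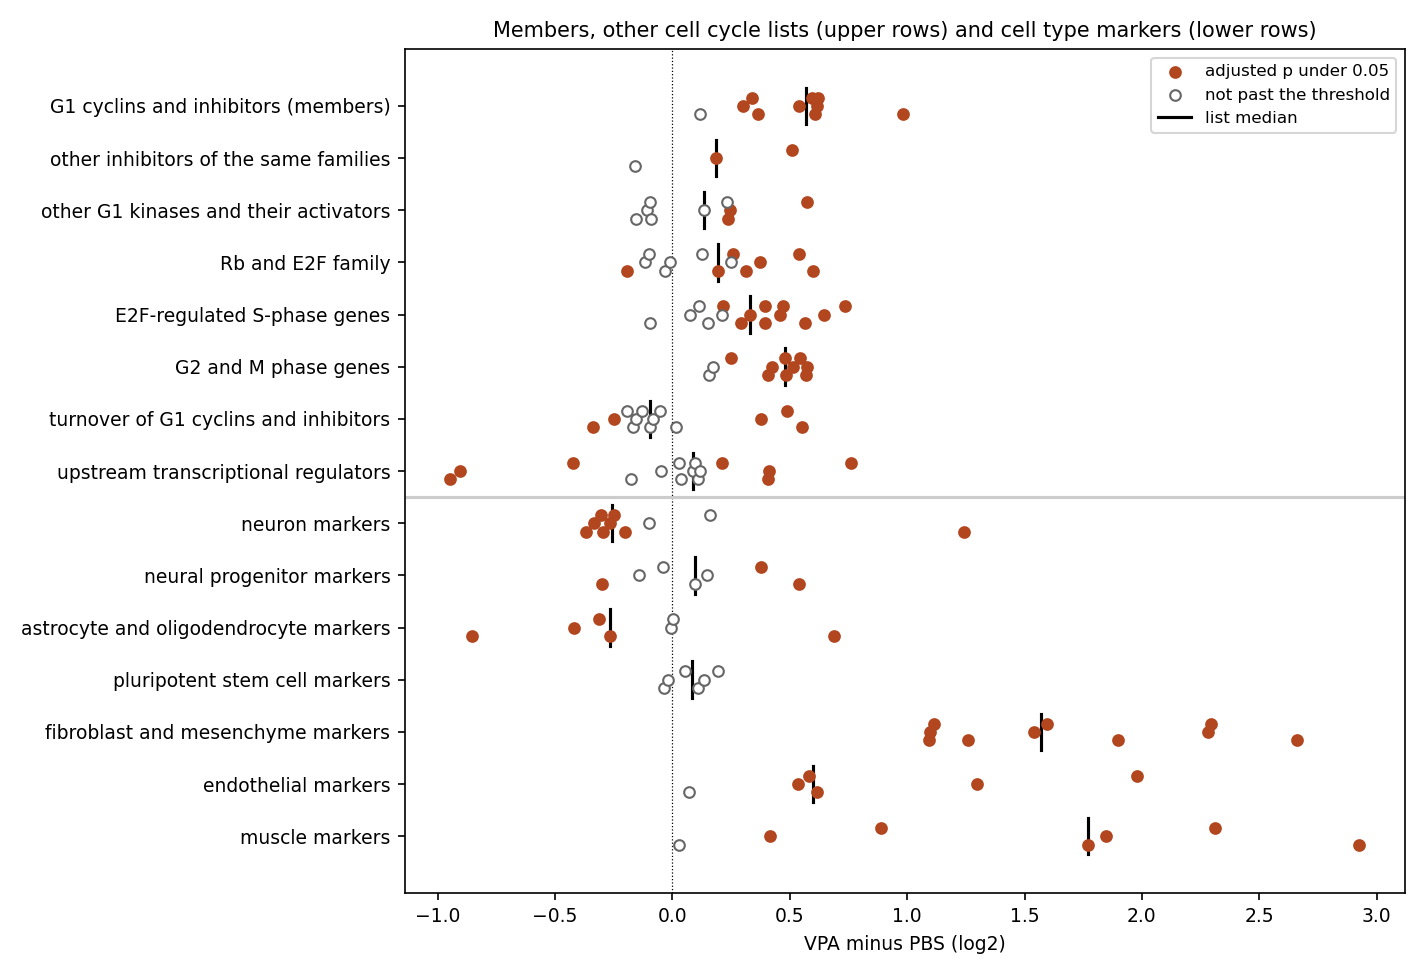
Change of each gene with VPA (VPA minus PBS, log2) in the 10 described genes, the other cell cycle lists and the cell type marker lists; filled points passed an adjusted p of 0.05, open points did not, and black ticks are list medians. The 10 genes lie between 0.12 and 0.98, the genes of fibroblasts and mesenchyme further right with a median of 1.57, and most neuron markers left of 0.

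Markers of several cell types moved beside the 10 genes. The counts of all marker lists stand beside 13.6% higher and 15.7% lower over all genes. Neuron markers were well above background in both groups, and 7 of 10 fell and 1 rose, with a median of -0.26. The gene that rose was Nefm, by 1.24 (SE 0.06), the largest change of that list. The largest fall was that of Dcx, -0.37 (SE 0.06), and both genes were named after their values were seen. Without PBS replicate 1 or PBS replicate 2, 4 fell. The mean level of that list was 10.56 to 10.63 on the VPA arrays and 10.65 to 10.71 on the PBS arrays. Of 7 measured neural progenitor markers 2 rose and 1 fell. Those that rose were Pax6, by 0.54 (SE 0.07), and Nes, by 0.38 (SE 0.09), and Sox1 changed by -0.30 (SE 0.08). These progenitor genes were named after their values were seen. Without PBS replicate 2, 1 rose, and the fall of Sox1 was lost without any 1 array other than VPA replicate 1. The mean level of the progenitor list was 9.91 to 10.005 on the VPA arrays and 9.79 to 9.87 on the PBS arrays. Of 10 markers of fibroblasts and mesenchyme 10 rose, with mean levels of 9.75 to 9.86 with VPA and 7.99 to 8.24 with PBS. Of 6 endothelial markers 5 rose, with mean levels of 6.94 to 7.08 with VPA and 6.07 to 6.20 with PBS, and of 7 muscle markers 6 rose, with 7.498 to 7.995 with VPA and 6.21 to 6.32 with PBS. Tek, an endothelial marker, lay below the background gauge in both groups, and the endothelial genes Cdh5 and Emcn and the muscle genes Myh3 and Myl1 lay below it with PBS.

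Of 7 measured markers of astrocytes and oligodendrocytes 1 rose and 4 fell, with mean levels of 6.93 to 7.03 with VPA and 7.09 to 7.19 with PBS, and Aqp4 and S100b below the gauge. All 6 pluripotent stem cell markers lay below the gauge in both groups, with mean levels of 5.69 to 5.78 with VPA and 5.51 to 5.81 with PBS. The part of these cell types in the changes of the G1 genes was not tested. In RNA of whole cultures, more cells of a type and more RNA per cell cannot be told apart.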

How the data were processed

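RNA from 6 W4 cultures, 3 with VPA and 3 with PBS, was measured on Affymetrix arrays after whole transcript sense labelling, per the labels' protocols. The deposited values were normalized by the authors and are log2 signals, 1 per probe set and array; they ran between 2.50 and 13.89, from which base 2 was inferred. How background was corrected and arrays normalized is not given in the sources used here. The submitters' processing notes name Partek 6.5 and mm9 without a role. Because array medians are nearly equal, each change is relative to the other genes.

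Of 35556 probe sets, GEO's platform annotation gave 21789 a single gene symbol, 1621 several and 12146 none. Symbols were updated through the Entrez ID for 21698. The brightest probe set stood for each of 19938 genes, 999 of which had more than 1. VPA and PBS were compared with limma 3.58.1 (lmFit, eBayes, no covariates) in R 4.3.3, over all genes, with Benjamini-Hochberg adjustment and a threshold of 0.05. The fit was tested on simulated data. Standard errors and 95% intervals are those of the moderated fit. For arrays, their number limits the precision.

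The members and lists were chosen with earlier results of these data known. All 10 members and all measured genes of the inhibitor list were to be named, from each other pathway list up to 4 genes past the threshold with the largest absolute change, and for the most changed member the 3 genes best correlated with it. Other cell cycle genes are marked as named after their values were seen. From the marker lists, genes were named where they lay below the background gauge, also after their values were seen. The exceptions are Nefm, Dcx, Pax6, Nes and Sox1, which are marked. Alternatives were other normalizations, filters on dim genes, uses of probe sets, variance models, array weights, a replicate block, a stricter threshold and leaving out each array. They were applied to the partner and marker lists after seeing the data.

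Replicate numbers recur in both groups, but nothing in the labels says what they share. No scan dates, batches or detection calls were used here.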

Additional observations from a re-analysis of the deposited data

How the results depend on the processing

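All 10 genes kept a positive difference under the 18 alternatives. The calls of 8 (Ccnd1, Ccnd2, Ccnd3, Ccne1, Cdk6, Cdkn1c, Cdkn2b and Cdkn2c) were past the threshold in every one; Ccne2 lost its call in 6, the stricter threshold of 0.01 among them, and Cdkn1b gained one without moderation, so the count of 9 higher there is made of different genes. The number of the 10 passing as higher was 8 to 9 and as lower 0 to 0 over the alternatives that leave out an array. Over all genes 5825 passed. Without moderation 3731 did, with array weights 8917, and at an adjusted p under 0.01 3370; with an array left out the count was 3836 to 8173, lowest without PBS replicate 2. Quantile normalization turned the balance of calls, with 3147 higher and 2671 lower where the deposited values gave 2702 and 3123, and moved the median of all genes to 0.02. With the replicate block 5410 genes and 9 of the 10 passed. Same-numbered arrays did not deviate together (correlations of -0.02, -0.01 and 0.02 over genes), so the numbers were not taken as pairs. Among the 28 partner genes tried, 0 changed sign. With no detection calls used, how far background lowers the differences of the dimmer genes (Cdkn2c, Ccne2 and Cdkn2b) was not tested.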
